A study of Mus musculus with 12 samples.

Results

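The genes described here are 9 known targets of glucocorticoid hormones in the brain: Sgk1, Tsc22d3, Zbtb16, Cdkn1a, Errfi1, Pdk4, Ddit4, Klf9 and Dusp1. They were chosen by name, with no threshold on their values but with earlier results of these data known, as 9 of the 35580 genes for which transcripts could be summed. All 37 of their annotated transcripts in the deposited table were above 0 in at least 1 library, and all 9 genes were among the 18434 that passed the filter on low values described below.

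Hippocampal RNA came from 12 male C57BL/6 mice (C57BL/6J in the study's methods) killed at postnatal day 70, with 3 mice in each of 4 groups. Control mice came from dams offered water and stayed with the dam while littermates chosen for stress were taken away, and pups that were not themselves separated are called undisturbed here. Ethanol mice came from dams that could drink 10% ethanol beside water by their own preference, so the amount reaching each pup was not set. By the labels this was during pregnancy, and by the study's methods also before mating and for part of nursing, when it overlapped the days of separation. Stress mice came from water-drinking dams and were kept alone, away from dam and nest, for 3 h a day from postnatal day 2 to 14, and ethanol + stress mice had both exposures. The study states that the mice had also been used for behavioural tests, and no corticosterone measurement is used here. Pups for stress were drawn from within litters, so mice of different groups may be littermates, and the labels give no litter. The p-values therefore measure the spread between these mice.

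Glucocorticoids (corticosterone in the mouse) are secreted by the adrenal gland with the daily rhythm and after stress. They bind the mineralocorticoid receptor and the glucocorticoid receptor, both abundant in the hippocampus, and the bound receptor enters the nucleus and attaches to DNA at glucocorticoid response elements, which are imperfect palindromes of a pair of hexamers. Genes next to such elements rise within hours of a hormone surge and fall back when it ends, so a single dissection records the recent hormonal state as well as any lasting difference. Several of the genes answer other signals too: Ddit4 and Cdkn1a respond to cellular stress, Pdk4 to fasting, and Dusp1 to growth factors and neuronal firing.

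Promoter sequence was taken from RefSeq (build GRCm38.p6, 250 bases before to 50 bases after each annotated start) for 8 of the 9 genes, in 17 windows. A complete response element, spelled AGAACA and TGTTCT with 3 bases of any kind between them, occurred in 1 of the 17 windows and in 3 of 32817 windows of all genes (0.00914%). Its looser form, GNACA and TGTNC with 3 bases between them, occurred in 1 of 17 windows, at the same site, against 0.475% of all windows. A lone TGTTCT on either strand, which the complete element also contains, was in 4 of 17 windows (23.5%), 3 of Sgk1 and 1 of Tsc22d3, against 19.0% of all. The Tsc22d3 hexamer lay 57520 bases before the start of Tsc22d3-201, the most abundant transcript of that gene. None of the 3 windows of Tsc22d3 held that start. The complete element lay in a window of Sgk1 on chromosome 10. Sgk1 has several annotated first exons, so its windows are printed for the start with the element, for the start of its most abundant transcript and for a distant start far upstream, all on the plus strand, with the hexamers or complete element in capitals.
Sgk1-202 start, chr10:21993640-21993939: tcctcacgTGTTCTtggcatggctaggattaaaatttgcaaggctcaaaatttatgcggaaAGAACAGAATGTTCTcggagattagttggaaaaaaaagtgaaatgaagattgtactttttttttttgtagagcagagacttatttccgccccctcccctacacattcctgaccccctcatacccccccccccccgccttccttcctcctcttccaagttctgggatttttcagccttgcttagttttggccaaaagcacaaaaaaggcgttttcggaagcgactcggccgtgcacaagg
Sgk1-201 start, chr10:21994416-21994715: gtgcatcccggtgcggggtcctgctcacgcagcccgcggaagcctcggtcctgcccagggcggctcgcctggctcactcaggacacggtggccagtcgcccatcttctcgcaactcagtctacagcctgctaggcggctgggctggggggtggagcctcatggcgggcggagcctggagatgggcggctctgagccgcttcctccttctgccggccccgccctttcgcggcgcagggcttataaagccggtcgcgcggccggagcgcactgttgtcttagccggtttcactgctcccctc
Sgk1-204 start, chr10:21881934-21882233: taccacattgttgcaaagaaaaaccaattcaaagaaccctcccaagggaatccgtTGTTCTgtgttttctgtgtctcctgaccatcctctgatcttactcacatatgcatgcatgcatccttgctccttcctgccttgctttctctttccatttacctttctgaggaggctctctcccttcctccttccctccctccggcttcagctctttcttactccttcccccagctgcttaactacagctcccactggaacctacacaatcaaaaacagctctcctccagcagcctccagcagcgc
The complete element begins at position 21993701, at -189 counted from the start of Sgk1-202, and 965 bases before the start of Sgk1-201.

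A motif for another signal was searched after values had been seen: TGACGTCA, the palindromic cyclic AMP response element bound by CREB, a factor that neuronal activity switches on. It was in 2 of 17 windows, those of Dusp1 and of the main start of Errfi1, against 1.79% of all windows. The element that serum response factor binds (its CArG box) was in 0 of 17 windows against 1.63% of all. The 2 windows with TGACGTCA in capitals are printed because Dusp1 is the gene whose sum passed the test below and Errfi1 the gene with a transcript that did.
Dusp1 start, minus strand, chr17:26508423-26508722: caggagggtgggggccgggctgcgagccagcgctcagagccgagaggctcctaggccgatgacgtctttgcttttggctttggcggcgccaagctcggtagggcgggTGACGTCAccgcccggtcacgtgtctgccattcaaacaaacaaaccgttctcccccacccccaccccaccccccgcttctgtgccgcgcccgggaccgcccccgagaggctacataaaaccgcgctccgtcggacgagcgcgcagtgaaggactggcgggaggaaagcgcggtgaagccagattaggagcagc
Errfi1 start, plus strand, chr4:150854820-150855119: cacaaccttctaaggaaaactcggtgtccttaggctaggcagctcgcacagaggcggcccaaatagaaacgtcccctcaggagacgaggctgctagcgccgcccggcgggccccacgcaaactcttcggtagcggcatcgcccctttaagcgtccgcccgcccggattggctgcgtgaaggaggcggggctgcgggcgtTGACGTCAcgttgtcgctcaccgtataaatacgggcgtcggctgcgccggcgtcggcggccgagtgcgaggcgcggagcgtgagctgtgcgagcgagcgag
The motif begins 96 bases before the start of Dusp1-202 and 54 bases before that of Errfi1-201. A match of letters is a description of the window and says nothing of binding in these mice.

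The values are TPM, a level relative to all transcripts of a library and corrected for transcript length, which the authors had scaled between libraries. They were summed per gene. Sums of all values per library were 889222 to 1173650, and a step in the low values gave a depth of 12013400 to 14901900 read pairs per library. All 8 marker genes of hippocampal neurons were detected, with a summed level of 378.5 to 459.9 TPM. The slope of a library's values over transcript length differed between mice, from -0.10 log2 units per doubling of length in ethanol replicate 2 to 0.07 in ethanol replicate 3, and no batch is named in the labels. In the comparisons a difference was called at an unadjusted p under 0.01 in limma, the threshold used by the study, and Benjamini-Hochberg adjusted p-values were taken over all 18434 genes.

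Mean levels over the 12 mice spanned a wide range on the TPM scale. Tsc22d3 was highest at 89.4 TPM, followed by Klf9 at 84.7, Sgk1 at 63.7, Ddit4 at 41.5, Errfi1 at 22.9, Zbtb16 at 22.2, Dusp1 at 9.09, Pdk4 at 6.72 and Cdkn1a at 2.24. The ranges over mice overlapped among Tsc22d3, Klf9 and Sgk1, between Sgk1 and Ddit4, and between Ddit4 and Zbtb16. Those of Errfi1 and Zbtb16 overlapped too, as did those of Dusp1 and Pdk4. Both genes of a pair were measured in the same mice, so overlapping ranges do not settle their order, which was not tested within mice. The ranges of Zbtb16 and Dusp1 did not overlap, and neither did those of Pdk4 and Cdkn1a. Variation between mice was greatest in Dusp1, with a coefficient of variation of 31.9% and a 3.20-fold range, and in Sgk1, with 29.9% and a 2.67-fold range. It was least in Cdkn1a, at 11.6%, although that gene rested on only 22.9 to 42.9 read pairs per library.

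**Figure D1:**
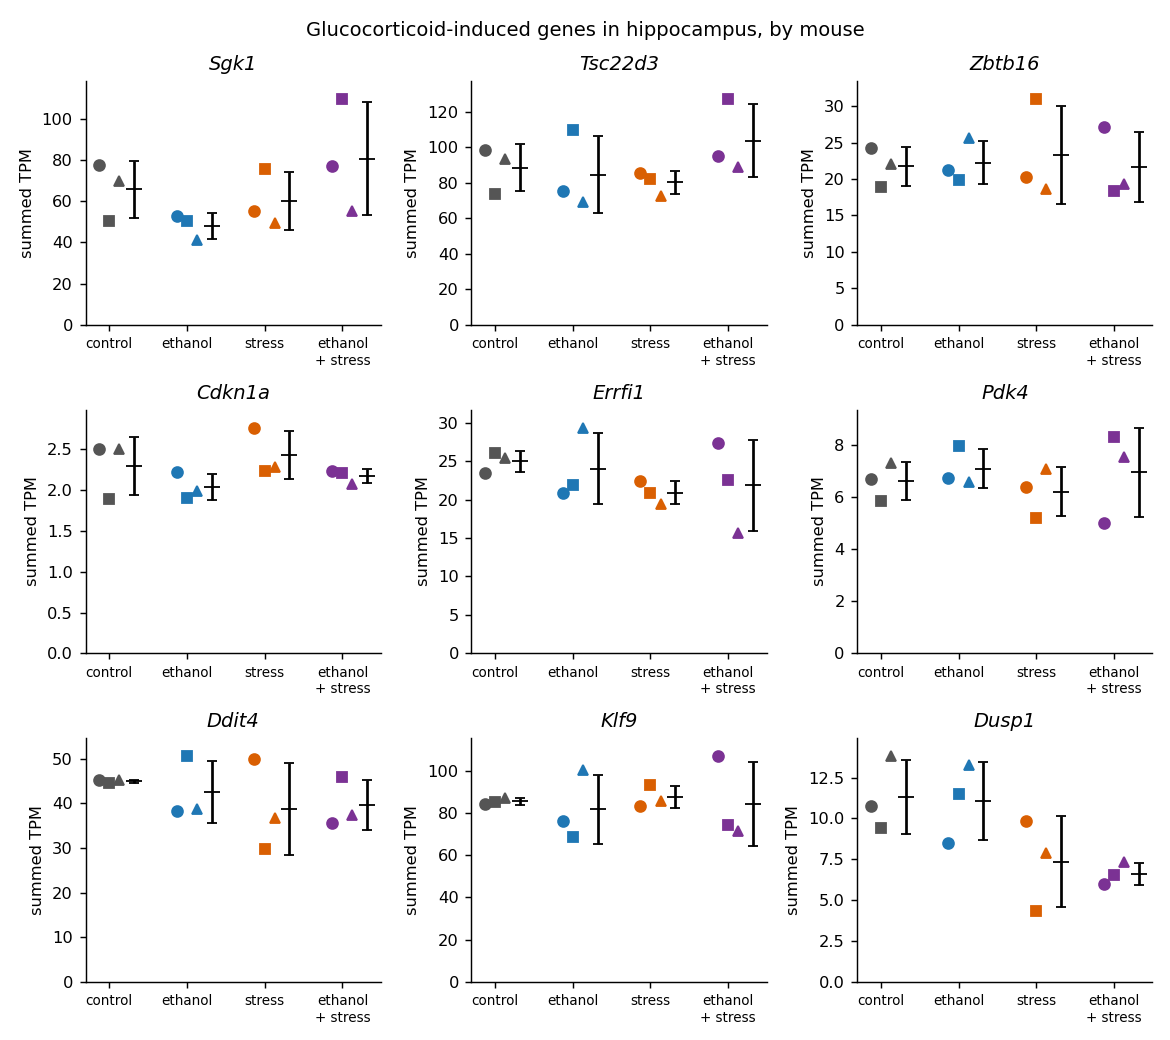
Summed TPM (vertical axis, linear from 0) of the 9 genes in each mouse of the 4 groups (horizontal axis), with circles, squares and triangles for replicates 1, 2 and 3, and the mean with SD (n = 3) in black. The 3 ethanol + stress mice lay between 5.99 and 7.34 TPM for Dusp1, below all control mice. For the other genes each exposed group overlapped control, except Errfi1 in stress mice. Exposed groups did not all overlap each other. Sgk1, for example, was at 41.1 to 53.0 TPM in ethanol and 55.5 to 109.6 TPM in ethanol + stress mice.

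None of the 9 genes was called in ethanol against control mice, where 0.678% of all genes were called. In stress against control mice the count was again 0 of 9, against 0.51% of all genes, and in ethanol + stress against control mice 0 of 9, against 0.971%. The last percentage depended on ethanol + stress replicate 1: without it 4.14% of all genes were called, and still none of the 9. The median difference of the 9 genes on the log2 scale was -0.08 with ethanol, -0.13 with stress and -0.05 with both, and that of all genes 0.02, 0.00 and 0.02. These 3 comparisons share the control mice. When the 6 mice separated from their dams were set against the 6 undisturbed mice, averaging over ethanol, 1 of 9 genes was called, Dusp1, and it was lower, where 0.586% of all genes were called and 0.277% were called lower. Of all calls in that comparison 52.8% were higher, and 40.7% after rescaling to a common total. The interaction, which asks whether separation acted differently with and without ethanol, gave 0 of 9, against 0.461% of all genes. No adjusted p of the 9 genes in any comparison was below 0.79 in limma.

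**Figure D2:**
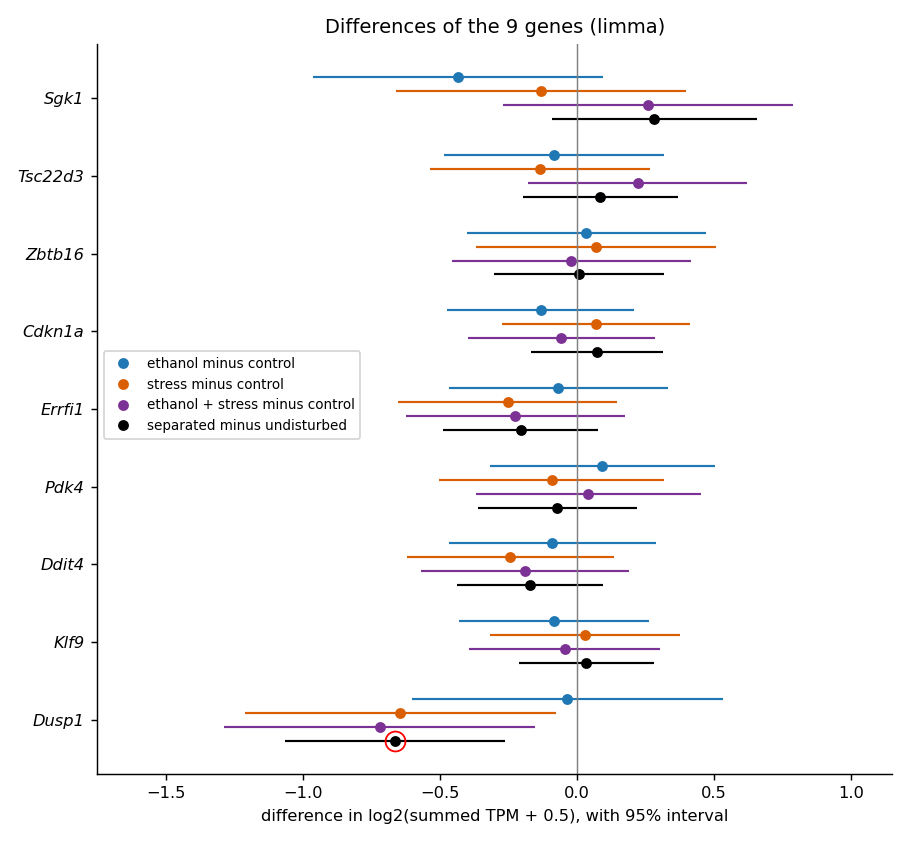
Difference in log2(summed TPM + 0.5) with its 95% interval (horizontal axis) for each gene (vertical axis) in 4 comparisons from limma. The red ring marks Dusp1 in separated minus undisturbed mice at -0.66, the only call. Intervals of the other 8 genes include 0.

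Sgk1 and Tsc22d3 are rapid and widely used readouts of the hormone. Sgk1, serum- and glucocorticoid-regulated kinase 1 (ENSMUSG00000019970.15, chromosome 10, 21882184 to 21999903, plus strand), controls ion channels and transporters. Its sums were 77.4, 50.5 and 69.7 TPM in control, 53.0, 50.3 and 41.1 in ethanol, 55.2, 75.9 and 49.3 in stress, and 77.2, 109.6 and 55.5 in ethanol + stress mice. The highest mouse was ethanol + stress replicate 2 and the lowest ethanol replicate 3, and every group overlapped control. In limma Sgk1 differed from control by -0.43 in ethanol mice (SE 0.24, 95% interval -0.96 to 0.09), by -0.13 in stress mice (SE 0.24, -0.66 to 0.40) and by 0.26 in ethanol + stress mice (SE 0.24, -0.27 to 0.79).

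The interaction for Sgk1 was 0.83 (SE 0.34, 95% interval 0.08 to 1.57, adjusted p = 1 in limma), the only interaction of the 9 genes whose interval left out 0, and it was not called. Among undisturbed mice 2 of 3 ethanol values lay below all control values, and among separated mice the ethanol + stress values included the highest. The interaction ranged from 0.58 to 1.07 when each mouse was left out in turn, and without ethanol + stress replicate 3 it passed the threshold.

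Tsc22d3 (ENSMUSG00000031431.13, chromosome X, 140539528 to 140600659, minus strand) encodes glucocorticoid-induced leucine zipper, which carries part of the hormone's anti-inflammatory action. It measured 98.7, 73.7 and 93.5 TPM in control, 75.2, 109.6 and 69.3 in ethanol, 85.4, 82.5 and 72.9 in stress, and 95.5, 127.3 and 88.8 in ethanol + stress mice. As with Sgk1, the highest mouse was ethanol + stress replicate 2 and the lowest ethanol replicate 3. The summed level of 8 choroid plexus markers was also highest in the former, at 7262 TPM, and lowest in the latter, at 43.15 TPM, and its part in both genes was not tested. Its differences from control were -0.08, -0.13 and 0.22 (SE 0.18 each), and its interaction 0.44 (SE 0.26, adjusted p = 1 in limma), with an interval that included 0.

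Transcripts of these 2 genes were described separately because they start at different first exons. Sgk1-201 (ENSMUST00000020145.11) held 64.8% of the Sgk1 sum and ran from 28.0 TPM in control replicate 2 to 87.8 TPM in ethanol + stress replicate 2. Sgk1-204 (ENSMUST00000120509.7), which starts far upstream at position 21882184 against 21994666, held 15.3% and stayed between 6.59 and 11.9 TPM, and its lowest value was in the mouse with the highest Sgk1-201. Sgk1-202, the transcript with the complete response element before its start, held 2.47% of the sum, at 0.393 to 2.67 TPM. None of the 6 tested Sgk1 transcripts was called, and the interaction was 0.87 (SE 0.46) for Sgk1-201 and -0.08 (SE 0.29) for Sgk1-204 in limma. The difference between these 2 values was not tested.

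For Tsc22d3, Tsc22d3-201 held 54.5% of the sum at 33.4 to 73.3 TPM and Tsc22d3-202 held 31.6% at 23.3 to 34.5 TPM. The transcript with the distant start, Tsc22d3-203, was at 1.59 to 5.07 TPM. Tsc22d3-201 gave a larger interaction, 0.66 (SE 0.34), than Tsc22d3-202, 0.14 (SE 0.24), but neither was called and the difference between them was not tested.

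**Figure D3:**
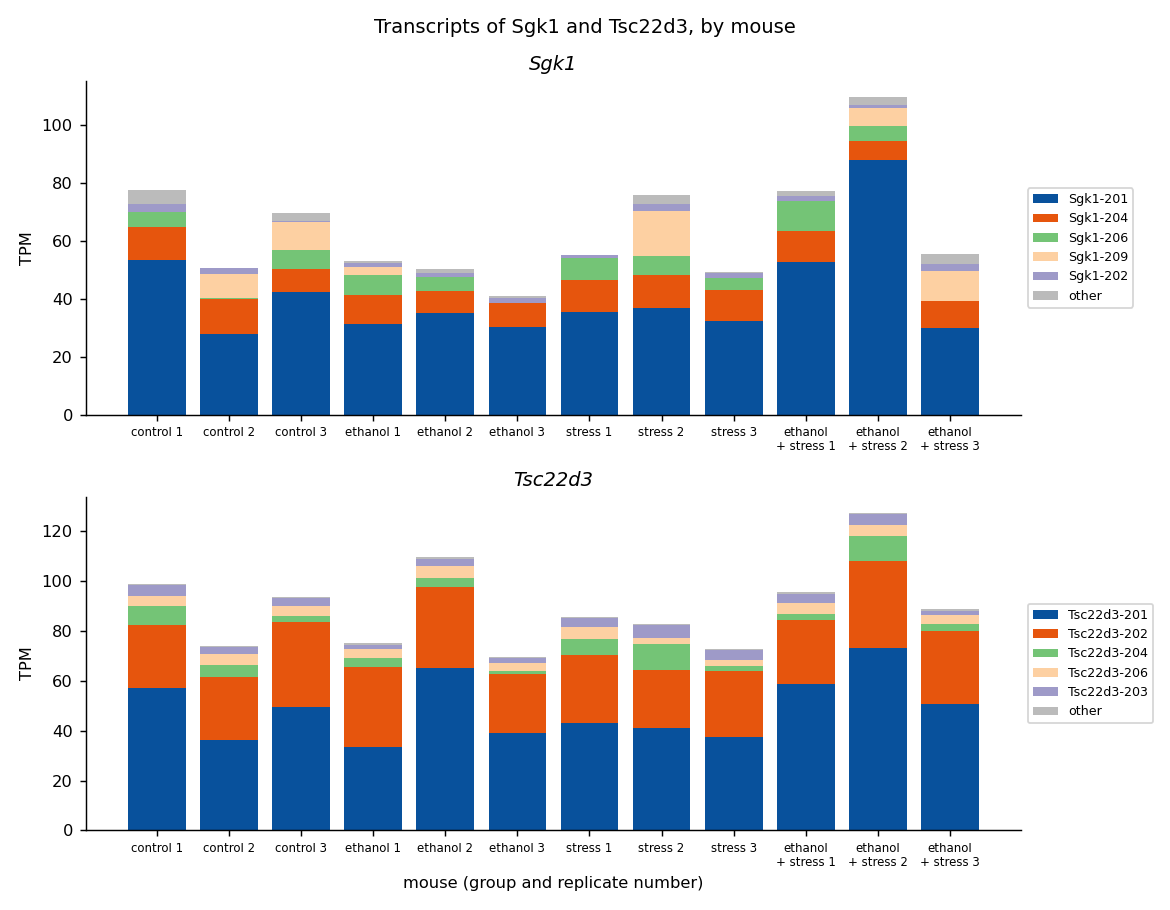
TPM (vertical axis) of the annotated transcripts of Sgk1 and Tsc22d3, stacked to the gene sum for each of the 12 mice (horizontal axis). The bar of ethanol + stress replicate 2 is the tallest for both genes, at 109.6 and 127.3 TPM, and most of it is Sgk1-201 at 87.8 TPM and Tsc22d3-201 at 73.3 TPM.

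Zbtb16 and Klf9 are transcription factors. Zbtb16 (ENSMUSG00000066687.5, chromosome 9, 48654297 to 48836222, minus strand) encodes the zinc finger repressor PLZF. It measured 24.3, 18.9 and 22.0 TPM in control, 21.3, 19.9 and 25.6 in ethanol, 20.3, 31.0 and 18.6 in stress, and 27.2, 18.4 and 19.3 in ethanol + stress mice. Stress replicate 2 was the highest, and the groups overlapped. Zbtb16 differed from control by 0.03, 0.07 and -0.02 (SE 0.20 each) in the order given, where the sign of the first changed with the scaling and that of the last with recovered read pairs or removal of the length trend. Its 2 transcripts, Zbtb16-202 with 58.2% of the sum and Zbtb16-201 with 41.9%, were not called.

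Klf9 (ENSMUSG00000033863.2, chromosome 19, 23141226 to 23168134, plus strand), a zinc finger factor that restrains growth of neuronal processes, measured 84.2, 85.2 and 87.2 TPM in control mice. The ethanol mice spread around them at 76.0, 68.8 and 100.3 TPM, the stress mice at 83.3, 93.2 and 85.6, and the ethanol + stress mice at 107.0, 74.5 and 71.4. The 3 control mice were closer together than the mice of any exposed group, and the exposed groups lay on both sides of them. Differences from control were -0.08, 0.03 and -0.05 (SE 0.16 each), the last of which changed sign when the length trend was removed. Klf9 was also the gene that went most closely with a library's slope over transcript length, with r = 0.91 over 12 libraries, and the values r = 0.67 for Zbtb16 and -0.78 for Pdk4 followed. Their part in the differences between mice was not tested, beyond the removal of the trend given below.

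Pdk4 and Ddit4 act in metabolism. Pdk4 (ENSMUSG00000019577.6, chromosome 6, 5483351 to 5496309, minus strand), a kinase that shuts pyruvate dehydrogenase and spares glucose, measured 6.71, 5.86 and 7.32 TPM in control, 6.73, 7.97 and 6.60 in ethanol, 6.39, 5.18 and 7.06 in stress, and 5.02, 8.30 and 7.55 in ethanol + stress mice. The lowest and the highest values were both in ethanol + stress mice. Its differences from control were 0.09, -0.09 and 0.04 (SE 0.19 each), and the last changed sign when libraries were rescaled to a common total.

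Ddit4 (ENSMUSG00000020108.4, chromosome 10, 59949669 to 59951834, minus strand) encodes REDD1, an inhibitor of the growth kinase mTORC1. Control mice gave 45.2, 44.6 and 45.1 TPM, ethanol mice 38.3, 50.6 and 38.7, stress mice 49.9, 29.7 and 36.6, and ethanol + stress mice 35.6, 46.0 and 37.3. In each exposed group 2 of 3 mice lay below all control mice and 1 above. Its differences from control were -0.09, -0.24 and -0.19 (SE 0.17 each), and all 3 intervals included 0.

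Cdkn1a, Errfi1 and Dusp1 restrain growth signals. Cdkn1a (ENSMUSG00000023067.14, chromosome 17, 29090976 to 29100727, plus strand) encodes the cell cycle inhibitor p21. It was low throughout, at 2.50, 1.89 and 2.51 TPM in control, 2.22, 1.91 and 1.99 in ethanol, 2.77, 2.23 and 2.29 in stress, and 2.23, 2.22 and 2.08 in ethanol + stress mice. Each exposed group overlapped control, and differences from control were -0.13, 0.07 and -0.06 (SE 0.16 each). The ethanol mice, up to 2.22 TPM, lay just below the stress mice, from 2.23 TPM, and these 2 groups were not compared in a test.

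Errfi1 (ENSMUSG00000028967.10, chromosome 4, 150853919 to 150868892, plus strand) encodes MIG6, a brake on the epidermal growth factor receptor. It measured 23.5, 26.1 and 25.4 TPM in control, 20.8, 21.9 and 29.4 in ethanol, 22.4, 20.9 and 19.4 in stress, and 27.4, 22.6 and 15.6 in ethanol + stress mice. All 3 stress mice lay below all 3 control mice. Of the 9 genes only Errfi1 separated these groups, where 7.2% of all genes did so in either direction. The difference was -0.25 (SE 0.18, 95% interval -0.65 to 0.15), with a two-sided exact permutation p = 0.1, the smallest that 3 against 3 mice allow. In ethanol + stress mice it was -0.22 (SE 0.18) and in separated against undisturbed mice -0.20 (SE 0.13, exact permutation p = 0.158). Most of the sum, 92.4%, was the coding transcript Errfi1-201, whose separated minus undisturbed difference was -0.13 (SE 0.15).

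Errfi1-203 (ENSMUST00000128640.7), a short noncoding transcript that starts at the same base as Errfi1-201, was the only 1 of 24 tested transcripts of the 9 genes that was called in any comparison. It was called lower in separated against undisturbed mice, where 0.934% of all tested transcripts were called. The counts were 0 of 24 in ethanol (1.26% of all transcripts), stress (0.914%) and ethanol + stress mice (1.21%) and in the interaction (0.854%). Errfi1-203 stood at 0.730, 1.72 and 1.11 TPM in control mice, 0.351, 2.39 and 1.73 in ethanol, 0, 0.407 and 0 in stress, and 0.381, 0.804 and 0 in ethanol + stress mice. The difference was -1.26 (SE 0.36, adjusted p = 0.9998 in limma). These values stand for 0 to 6.25 read pairs, near the counting floor, and the call was lost in 8 of 12 fits that left out a mouse and had no value under a minimum of 1 TPM.

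Dusp1 (ENSMUSG00000024190.7, chromosome 17, 26505590 to 26508519, minus strand) encodes a phosphatase that switches off the MAP kinases and ends their signal. It measured 10.7, 9.40 and 13.8 TPM in control, 8.50, 11.5 and 13.2 in ethanol, 9.81, 4.33 and 7.89 in stress, and 5.99, 6.52 and 7.34 in ethanol + stress mice. Of the 6 separated mice 5 lay below all 6 undisturbed mice, and stress replicate 1 lay within their range. The mean was 11.2 ± 2.09 TPM (SD, n = 6) in undisturbed and 6.98 ± 1.86 TPM (SD, n = 6) in separated mice. The difference was -0.66 (SE 0.18, 95% interval -1.07 to -0.26, adjusted p = 0.9999 in limma), a fold of 0.631 on the log2(TPM + 0.5) scale. An exact permutation test over the 924 ways to divide 12 mice into groups of 6 gave a two-sided p = 0.00649, not corrected for the number of genes looked at. The ranges of the 2 groups overlapped, as for all but 0.103% of genes in this comparison. All 8 choroid plexus markers were above 0 in the same comparison without a call, at a summed 210.9 to 7262 TPM in separated and 43.15 to 3548 TPM in undisturbed mice. So were all 5 blood markers, at 2454 to 6480 against 1603 to 6815 TPM, and all 7 oligodendrocyte markers, at 3696 to 6201 against 2842 to 5390 TPM. Their part in the difference, and in that of the immediate early genes described next, was not tested. Fewer cells that express a gene and less RNA per cell cannot be told apart in tissue of this kind.

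The contrast was also read with and without ethanol. Stress mice were at -0.64 against control (SE 0.26, exact permutation p = 0.2). Ethanol + stress mice were at -0.72 (SE 0.26, exact permutation p = 0.1), and there Dusp1 was the only 1 of the 9 genes whose groups did not overlap, against 10.2% of all genes. Neither passed the threshold in limma, but the former did without stress replicate 1 (-0.88), and the latter when only those 2 groups were fitted and when libraries were rescaled to a common total. The interaction was -0.04 (SE 0.37, 95% interval -0.84 to 0.76), an interval wide enough to hold a difference as large as the effect itself. Ethanol alone gave -0.04 (SE 0.26), and none of the 9 genes separated ethanol from control mice, against 8.25% of all genes. The call in separated mice was lost without control replicate 3 (-0.59) or without ethanol replicate 3 (-0.60), the 2 highest mice. The main coding transcript, Dusp1-202, with 82.2% of the sum, gave -0.65 (SE 0.21) and fell just short of the threshold.

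Dusp1 is also an immediate early gene, switched on within minutes of neuronal firing, and 9 other such genes were examined beside it. All 9 were below 0 in separated against undisturbed mice, with a median of -0.45 on the log2 scale against 0.00 for all genes, and 2 of 9 fell, where 0.277% of all genes were called lower. All 9 were below 0 in ethanol against control mice as well, with a median of -0.12 and 0 calls. Fos, a subunit of the AP-1 factor, changed by -1.12 (SE 0.36, exact permutation p = 0.0216) and Nr4a1, an orphan nuclear receptor, by -0.75 (SE 0.23, exact permutation p = 0.0152), both with adjusted p = 0.9999 in limma. Each of these calls was lost in 9 of 12 fits that left out a mouse, without a filter on low values, with eBayes without trend and with the replicate block, and that of Nr4a1 also with recovered read pairs. Fos was at 23.1, 20.2 and 30.8 TPM in control, 10.8, 19.1 and 32.0 in ethanol, 23.6, 5.37 and 8.60 in stress, and 8.18, 14.6 and 5.74 in ethanol + stress mice. Stress replicate 1, which kept a Dusp1 level of undisturbed mice, did so for Fos as well, and stress replicate 2 was the lowest mouse for both. The summed level of the 9 genes was 159.9 to 307.2 TPM in undisturbed and 117.2 to 253.8 TPM in separated mice. Their part in the difference of Dusp1 was not tested.

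**Figure D4:**
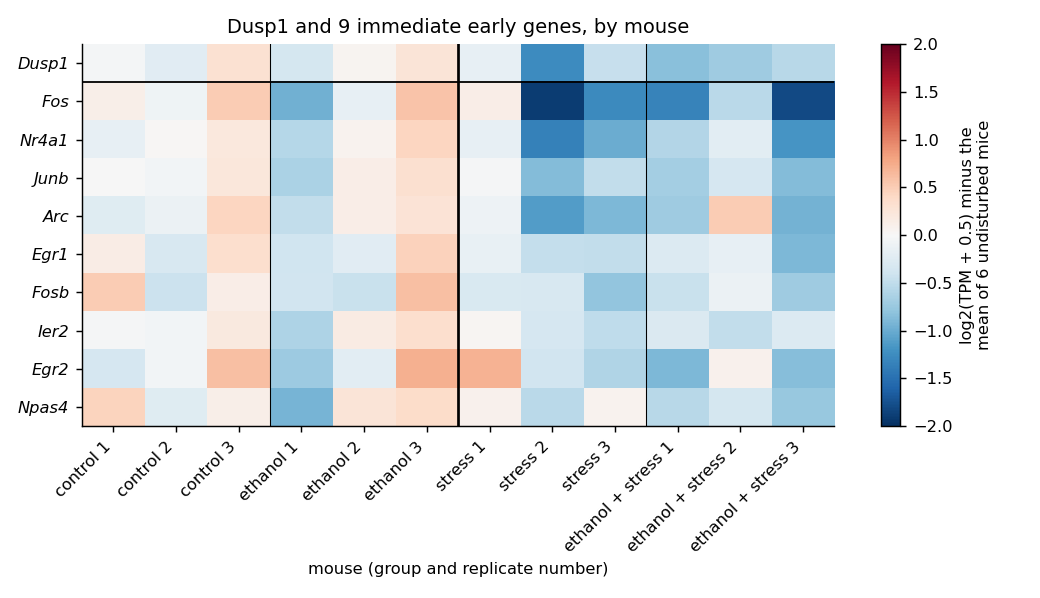
Log2(TPM + 0.5) of Dusp1 and 9 immediate early genes (rows) in each mouse (columns), as colour relative to the mean of the 6 undisturbed mice on the left. Stress replicate 2 was lowest for Fos at 5.37 TPM, stress replicate 1 was at 23.6 TPM, and ethanol + stress replicate 2 lay within the undisturbed range for Fos at 14.6 TPM but below it for Dusp1 at 6.52 TPM.

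The other genes of the pathway were read from 2 lists. The hormone's receptors, their chaperones and coregulators, and the enzyme that regenerates corticosterone made up 12 genes, of which 0 were called in any of the 5 comparisons, where 0.461% to 0.971% of all genes were called, so 0 of 12 does not set them apart. Nr3c1, the glucocorticoid receptor, was at 45.2 to 55.2 TPM over all mice and differed from control by -0.09, 0.05 and -0.10 (SE 0.08 each). Nr3c2, the mineralocorticoid receptor, was at 74.2 to 106.7 TPM and differed by -0.11, 0.04 and -0.11 (SE 0.13 each).

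A list of 20 other glucocorticoid-induced genes, which shares Fkbp5 with the receptor list, gave 0 calls in ethanol, stress, the separated comparison and the interaction, and 1 of 20 in ethanol + stress mice, where 0.971% of all genes were called, or 4.14% without ethanol + stress replicate 1. The exception was Mt2, a metallothionein that binds zinc and copper. It was at 184.2, 103.7 and 161.3 TPM in control and 237.8, 294.9 and 365.2 in ethanol + stress mice, and it rose by 1.02 (SE 0.28, adjusted p = 0.791 in limma). That call was lost without control replicate 2, ethanol + stress replicate 2 or ethanol + stress replicate 3. In that comparison 16 of 20 genes were above 0, with a median of 0.26 against 0.02 for all genes and -0.05 for the 9 genes described here. All 5 blood markers were called higher in the same mice, with summed levels of 2454 to 6480 TPM against 1603 to 2022 TPM in control mice. They were also all called higher in ethanol mice, at 3146 to 6815 TPM. In ethanol + stress mice all 8 choroid plexus markers were above 0 without a call, at 210.9 to 7262 against 625.2 to 1853 TPM. Without a call, 5 of 6 astrocyte markers were above 0, at a summed 1691 to 2510 against 1790 to 2064 TPM, and 5 of 5 microglial markers, at 230.5 to 308.2 against 227.2 to 249.1 TPM. Their part in these values was not tested.

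Fkbp5, a receptor cochaperone and a sensitive target of the hormone, was at 27.0, 27.2 and 28.7 TPM in control, 27.1, 25.7 and 31.9 in ethanol, 29.3, 36.5 and 26.1 in stress, and 38.5, 26.5 and 27.6 in ethanol + stress mice. It differed from control by 0.02, 0.13 and 0.14 (SE 0.16 each). Stress replicate 2 and ethanol + stress replicate 1 stood above the other mice. Per1, a clock gene that the hormone also induces, differed by 0.47, 0.18 and 0.29 (SE 0.20 each), none of them called.

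Whether the 9 genes varied together from mouse to mouse was asked with correlations of log2 levels over all 12 mice. Of 36 pairs, 7 (19.4%) had p under 0.05 in a permutation test with 100000 draws, 4 of them positive and 3 negative, and 0 had an adjusted p under 0.05. For comparison, 16.1% of pairs of one of the 9 genes with any other gene were past r = 0.576 in size, so the share among the 9 genes was near the background. The median r of the 36 pairs was 0.03, with 20 pairs above and 16 below 0.

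Sgk1 and Tsc22d3 had r = 0.74 (permutation p = 0.00546, adjusted p = 0.0882, rho = 0.71 with permutation p = 0.0129), and r = 0.78 with the length trend of each library removed. Without the 2 mice farthest from the median it was 0.48 (permutation p = 0.163). Zbtb16 and Klf9 had r = 0.71 (permutation p = 0.0098, adjusted p = 0.0882, rho = 0.64 with permutation p = 0.028), and Pdk4 was negatively related to both, with r = -0.77 to Klf9 (permutation p = 0.00333, adjusted p = 0.0882, rho = -0.72 with permutation p = 0.0108) and r = -0.71 to Zbtb16 (permutation p = 0.00933, adjusted p = 0.0882, rho = -0.64 with permutation p = 0.0295). With the length trend removed these values were 0.58, -0.74 and -0.69, and without the 2 farthest mice 0.60, -0.61 and -0.29. Errfi1 and Klf9 (r = 0.66), Ddit4 and Dusp1 (r = 0.67) and Zbtb16 and Ddit4 (r = -0.60) made up the rest of the 7, with adjusted permutation p of 0.113, 0.113 and 0.206.

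After these values had been seen, each of the 9 genes was also compared with Fkbp5. Zbtb16 had r = 0.86 (permutation p = 0.00087, adjusted p = 0.00508 over 9 pairs, rho = 0.73 with permutation p = 0.01), Klf9 r = 0.81 (permutation p = 0.00113, adjusted p = 0.00508, rho = 0.70 with permutation p = 0.014) and Pdk4 r = -0.82 (permutation p = 0.00182, adjusted p = 0.00546, rho = -0.73 with permutation p = 0.0091). Past r = 0.576 in size, however, lay 22.7% of all other genes for Zbtb16, 35.2% for Klf9 and 27.6% for Pdk4, the 3 highest shares of the 9 genes. Fkbp5 itself had r = 0.67 with the slope over transcript length. With the length trend removed r was 0.83, 0.78 and -0.82. Without the 2 farthest mice it was 0.65, 0.65 and -0.41, with permutation p = 0.038, 0.0426 and 0.243. For Sgk1 r was 0.20 and for Tsc22d3 -0.16. All these relations cross the groups, and none of Fkbp5, Zbtb16, Klf9 and Pdk4 was called in a comparison of groups.

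**Figure D5:**
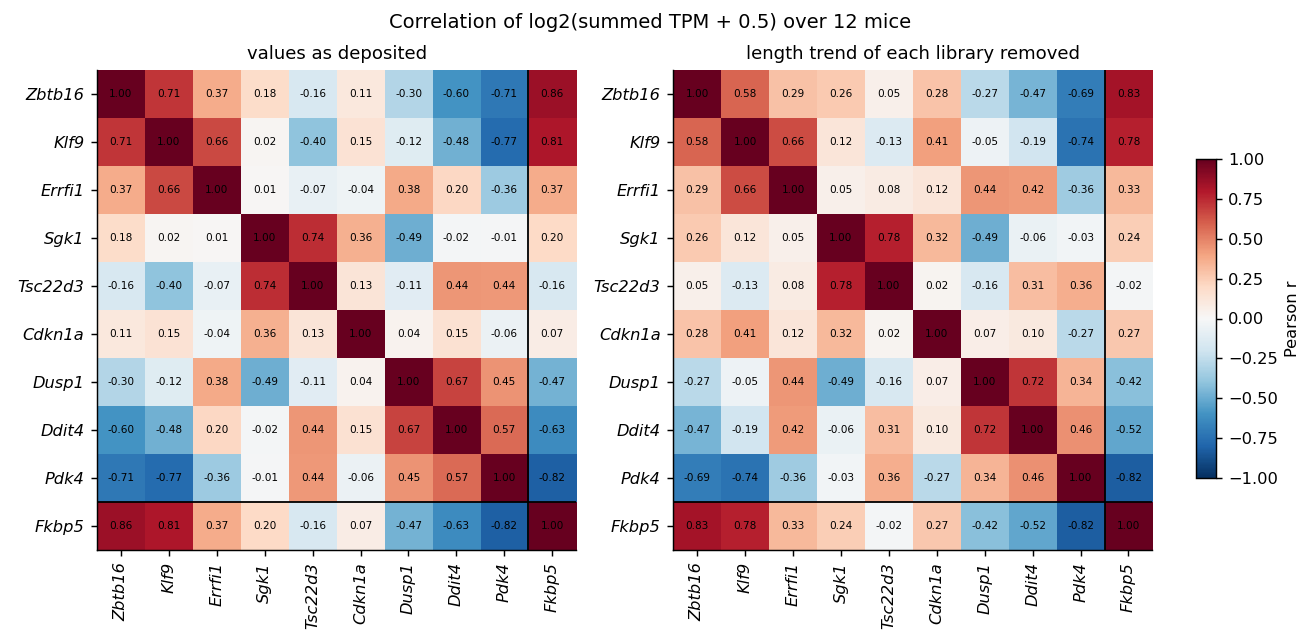
Pearson r between the 9 genes and Fkbp5 over 12 mice, as colour and number, from the values as deposited (left) and with each library's trend over transcript length removed (right). Zbtb16, Klf9 and Fkbp5 are positively related and Pdk4 negatively to all 3, while Sgk1 pairs with Tsc22d3 at r = 0.74 and 0.78.

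The genes whose levels over the 12 mice were most like the mean of the 9 genes, each standardised, were Gm15186 (r = 0.90), Exog (r = 0.87), Ints12 (r = 0.86), Tnk2 (r = 0.85) and Gm5075 (r = 0.84). They were picked as the highest of 18425 genes, and Gm15186 and Gm5075 were at means of only 0.158 and 0.282 TPM.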

How the data were processed

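The deposited values are a signal in TPM per transcript that the authors made from paired-end reads of stranded, rRNA-depleted libraries with kallisto (Ensembl mouse transcriptome, mm10) and sleuth, scaled between libraries and not filtered. The submitters' notes also name CASAVA, and tool versions are not given in the sources used here. Identifiers of 113580 among 115270 transcripts were found in GENCODE vM21, and their values were added up per gene. Genes with 0.1 TPM in 6 or more libraries entered limma 3.58.1 (R 4.3.3, lmFit, eBayes with trend, two-sided, log2 of TPM plus 0.5, 1 model of 4 group means). The 59852 transcripts passing this filter were fitted alike. TPM are not counts, so no count model was used, and fold changes on this scale understate those of low genes.

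Read depth was recovered from the spacing of low values, of which 80.9% to 82.6% lay within 0.15 of whole read pairs, and this covers counting error only. Single genes were also tested by exact permutation over mice, and correlations with 100000 permutations. Python 3.11.15, pandas 2.3.3, numpy 2.4.6, scipy 1.17.1 and matplotlib 3.10.9 were used.

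Named genes were the 9 targets, their most abundant and called transcripts and first-exon variants, the 5 genes most like their mean, Fkbp5, Per1, Nr3c1, Nr3c2 and called list genes. The other Sgk1 and Tsc22d3 transcripts were named after their values were seen. The 9 genes, lists and tests were chosen with earlier results of these data known. Alternatives changed the pseudocount, filter, scaling, length trend, variance prior, samples fitted, replicate block and each mouse. Alternatives for Mt2, Fos and Nr4a1 and 2 for the correlations were added after the data were seen, as were the exact tests. Marker lists for oligodendrocytes, astrocytes, endothelium, microglia, thalamus and striatum gave 0 calls in the 5 comparisons except 1 higher microglial gene in the interaction.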

Additional observations from a re-analysis of the deposited data

How the results depend on the processing

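Of the 9 genes, Dusp1 was called lower in separated mice under all 10 alternatives other than leaving out a mouse (-0.70 to -0.63), and the count of genes called there was 0 to 1 over the 12 fits without a mouse. In ethanol + stress mice 1 gene, Dusp1, was called when libraries were rescaled to a common total (-0.85, where the median of all genes moved from 0.02 to -0.09) and 1 when only the groups compared were fitted. Leaving out a mouse gave 0 to 1 genes in stress mice (Dusp1 without stress replicate 1) and 0 to 1 in the interaction (Sgk1 without ethanol + stress replicate 3). Transcripts called in separated mice numbered 0 at a minimum of 1 TPM, 2 after rescaling and 0 to 2 without a mouse, and in stress mice and the interaction 0 to 1 without a mouse. Pairs of genes with p under 0.05 fell from 7 to 1 without the 2 farthest mice, and that pair was not among the 7. It was Zbtb16 and Dusp1, with r = 0.73 (permutation p = 0.0177), against r = -0.30 over all 12 mice.

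Signs of differences near 0 turned. On rescaling, Zbtb16 was at -0.0454 in ethanol and -0.0269 in separated mice, Pdk4 at -0.0867 in ethanol + stress and Klf9 at -0.0015 in separated mice. Median-of-ratios size factors gave Zbtb16 -0.0044 in ethanol mice. In ethanol + stress mice recovered read pairs gave Zbtb16 0.0161, and removal of the length trend gave Zbtb16 0.0064 and Klf9 0.0068. Without a mouse the ethanol differences ran from -0.2833 to 0.0456 for Tsc22d3, -0.0685 to 0.1159 for Zbtb16, -0.2188 to 0.0241 for Errfi1, -0.2408 to 0.0295 for Klf9 and -0.1693 to 0.1356 for Dusp1, and with no change of sign from -0.2195 to -0.0215 for Ddit4, -0.2433 to -0.076 for Cdkn1a and 0.0111 to 0.161 for Pdk4. The stress differences ran from -0.1496 to 0.2106 for Zbtb16, -0.0414 to 0.126 for Cdkn1a, -0.1837 to 0.0223 for Pdk4 and -0.0185 to 0.0624 for Klf9. In ethanol + stress mice they ran from -0.192 to 0.0834 for Zbtb16, -0.0923 to 0.2439 for Pdk4 and -0.229 to 0.0618 for Klf9, and in separated mice from -0.1019 to 0.0782 for Zbtb16, -0.1382 to 0.0299 for Pdk4 and -0.0578 to 0.1123 for Klf9. The interaction of Dusp1 ran from -0.3558 to 0.1922.

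With the replicate number as a block, 1 transcript of the 9 genes was called in stress mice against 0 without it. Only 1 of 18 pairs of mice with the same number had a correlation of deviations above 0.1, and 2 libraries resembled one of their own number most, so the numbers did not pair the mice. Fos and Nr4a1 lost their calls under this block.

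Over all genes, a minimum of 1 TPM left 14359 of 18434 genes in the test. Calls went from 125 to 69 in ethanol, 94 to 42 in stress, 108 to 62 in separated mice and 85 to 48 in the interaction. As shares of the genes tested, these were 0.678% to 0.481%, 0.51% to 0.292%, 0.586% to 0.432% and 0.461% to 0.334%. Recovered read pairs, with 18114 genes tested, gave 54 in stress, 61 in separated mice and 46 in the interaction. Without a filter 24617 genes were tested, and ethanol gave 198 (0.804%) and the interaction 131 (0.532%). In ethanol + stress mice rescaling gave 118 against 179, and leaving out ethanol + stress replicate 1, replicate 2 or control replicate 3 gave 763, 118 and 114. The interaction gave 140 without ethanol + stress replicate 1. The cause was not tested. Cdkn1a rests on 22.9 to 42.9 and Errfi1-203 on 0 to 6.25 read pairs per library.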
